A study of Mus musculus with 6 samples.

Results

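Cell cycle and DNA replication genes were followed in RNA of the embryonic mouse cranial base at E15.5 (days of gestation), the cartilage on which the brain rests. The list of 40 genes, fixed by symbol, held 16 genes of S phase and 24 of G2 and mitosis, and 38 of the 40 (14 and 24) matched 1 of the 43496 entries of the deposited table, Cdt1 and Gins2 having no match. All 38 passed the filter on low values, a mean of at least 1 FPKM (fragments per kilobase of transcript, scaled for sequencing depth) over the 6 libraries, which 15710 entries passed. There were 3 embryos labelled as controls and 3 labelled as carrying an ENU allele of Memo1, 1 library each, all of strain C57BL/6J. ENU is a chemical mutagen that mostly changes single bases, and Memo1 encodes a mediator of ERBB2-driven cell motility. The labels give neither the controls' genotype at Memo1 nor the zygosity of the mutants. The tissue was taken whole, so fewer cycling cells and less RNA per cycling cell cannot be told apart. Embryos of a group are separate samples, and p-values set the difference between groups against the spread between embryos of a group. The main test did not use the title words that some embryos share.

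Proliferating cells switch genes on in waves. E2F factors drive the genes of S phase, which load and run the MCM helicase, make deoxynucleotides and copy DNA. Later the MuvB complex with B-Myb and FoxM1 drives the genes of G2 and mitosis, which condense chromosomes, build the spindle and degrade cyclins. MuvB binds a short element called the cell cycle genes homology region (CHR), often near CCAAT boxes bound by NF-Y. In growing cartilage cycling cells are found mainly among flat columnar chondrocytes and in the perichondrium, and cells leave the cycle before they enlarge.

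The promoters of the members differed by class in the elements these factors bind, and 6 are shown because they carry those elements or belong to the members with the smallest p in each class. They are RefSeq windows of build GRCm38.p6, from 250 bases before to 50 bases after the gene's start, read 5′ to 3′ along the gene. Capitals mark matches, on either strand, to the CHR (TTTGAA or TTCGAA), the CCAAT box (CCAAT) or an E2F element (TTTGGCGC, TTTCCCGC, TTTCGCGC, TTTGGCGG or TTTCCCGG), and overlapping matches run together. Rrm1 lies at chr7:102441445-102441744 (+), Rrm2 at chr12:24708004-24708303 (+), Mcm6 at chr1:128359656-128359955 (-), Ube2c at chr2:164769679-164769978 (+), Mad2l1 at chr6:66534971-66535270 (+) and Cdk1 at chr10:69352863-69353162 (-). Mcm6 and Cdk1 were chosen after the matches were seen.
Rrm1: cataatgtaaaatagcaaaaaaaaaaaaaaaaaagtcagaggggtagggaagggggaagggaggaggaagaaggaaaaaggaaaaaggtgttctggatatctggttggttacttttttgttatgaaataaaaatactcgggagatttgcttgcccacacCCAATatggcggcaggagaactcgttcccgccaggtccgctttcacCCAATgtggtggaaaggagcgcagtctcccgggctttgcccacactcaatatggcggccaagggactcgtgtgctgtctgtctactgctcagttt
Rrm2: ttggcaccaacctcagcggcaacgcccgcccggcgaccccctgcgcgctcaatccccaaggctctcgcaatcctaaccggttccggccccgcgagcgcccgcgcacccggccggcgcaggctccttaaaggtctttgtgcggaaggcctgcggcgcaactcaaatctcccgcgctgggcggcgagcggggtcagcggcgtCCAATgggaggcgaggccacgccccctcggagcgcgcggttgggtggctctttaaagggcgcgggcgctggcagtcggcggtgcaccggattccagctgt
Mcm6: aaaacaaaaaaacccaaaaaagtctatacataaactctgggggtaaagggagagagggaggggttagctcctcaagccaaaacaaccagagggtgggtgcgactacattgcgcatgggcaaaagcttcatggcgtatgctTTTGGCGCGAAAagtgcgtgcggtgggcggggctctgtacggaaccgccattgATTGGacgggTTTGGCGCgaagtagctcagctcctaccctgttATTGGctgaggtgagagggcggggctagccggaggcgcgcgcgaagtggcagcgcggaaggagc
Ube2c: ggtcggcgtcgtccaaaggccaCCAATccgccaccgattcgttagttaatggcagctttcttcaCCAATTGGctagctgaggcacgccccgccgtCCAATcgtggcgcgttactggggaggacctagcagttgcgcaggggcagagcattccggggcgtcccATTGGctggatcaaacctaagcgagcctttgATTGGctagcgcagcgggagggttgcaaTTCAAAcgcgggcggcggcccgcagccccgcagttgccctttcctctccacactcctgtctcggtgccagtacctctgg
Mad2l1: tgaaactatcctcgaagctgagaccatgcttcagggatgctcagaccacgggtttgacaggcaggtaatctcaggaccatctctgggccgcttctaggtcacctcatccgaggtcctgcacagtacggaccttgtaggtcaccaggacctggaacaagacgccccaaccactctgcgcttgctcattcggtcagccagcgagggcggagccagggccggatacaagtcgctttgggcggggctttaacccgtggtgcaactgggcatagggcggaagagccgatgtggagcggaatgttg
Cdk1: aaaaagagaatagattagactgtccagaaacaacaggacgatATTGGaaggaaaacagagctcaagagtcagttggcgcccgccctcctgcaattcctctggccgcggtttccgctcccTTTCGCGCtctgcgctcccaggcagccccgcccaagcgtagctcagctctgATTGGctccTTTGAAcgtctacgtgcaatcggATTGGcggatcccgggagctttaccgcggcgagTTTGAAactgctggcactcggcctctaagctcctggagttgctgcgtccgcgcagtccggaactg

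A window was found for 12 of the 14 S-phase members and 20 of the 24 G2 and mitosis members, and the first was taken where a member had more. The 32851 windows set beside them come from 27025 genes, so some genes count there more than once. A CHR match stood in 15 of the 20 windows of G2 and mitosis members (75%) and in 2 of the 12 S-phase windows (16.7%), against 19.2% of all 32851 windows. A CCAAT match stood in 17 of 20 (85%) and 8 of 12 (66.7%), against 37.4% of all windows. An E2F match stood in 2 of 20 (10%) and 5 of 12 (41.7%), against 3.59% of all windows. The Cdk1 window held all 3 kinds, with CHR matches at bases -71 to -66 and -15 to -10 from the start. Ube2c had a CHR match at -29 to -24, Mcm6 had E2F but no CHR matches, and the Mad2l1 window matched none of these letters. A match describes the letters, not binding.

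Library quality touches every value that follows. Mutant 1 listed 30811 entries at 0, while the other 5 listed 19787 to 20594, and its log2 values correlated with theirs across the tested genes at r = 0.748 to 0.762. Spacing of the lowest values put depth at 80.2% to 152% of control 1 for the other libraries, and it could not be read in mutant 1, whose depth is unknown. For this reason counts and medians are given with all 6 libraries and without mutant 1, and the log2 changes of some members are given both ways. Memo1 mRNA was 19.1, 23.1 and 21.9 FPKM in controls 1 to 3 and 25.4, 20.1 and 22.2 FPKM in mutants 1, 2 and 3. The groups overlapped, and a base change need not alter the mRNA level, so Memo1 does not check the labels. The cartilage markers Col2a1, Acan, Sox9, Col9a1, Col11a1, Matn1, Hapln1 and Comp were above 0 in all 6 libraries, as the tissue label asks.

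Most cell cycle genes were modestly lower in mutant cranial base, and no single one passed the test. Without mutant 1, 35 of 38 members had a log2 change below 0, 11 of 14 in S phase and 24 of 24 in G2 and mitosis, where 52.9% of all tested genes were below 0. The median log2 change was -0.13 for the S-phase members (quartiles -0.26 and -0.044) and -0.19 for the G2 and mitosis members (quartiles -0.29 and -0.12), against -0.015 for all tested genes. With all 6 libraries 25 of 38 were below 0, 9 of 14 in S phase and 16 of 24 in G2 and mitosis, against 54.2% of all tested genes. The medians were then -0.092 and -0.24, against -0.046 for all tested genes. Log2 changes are mutants minus controls on the log2(FPKM + 1) scale.

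**Figure D1:**
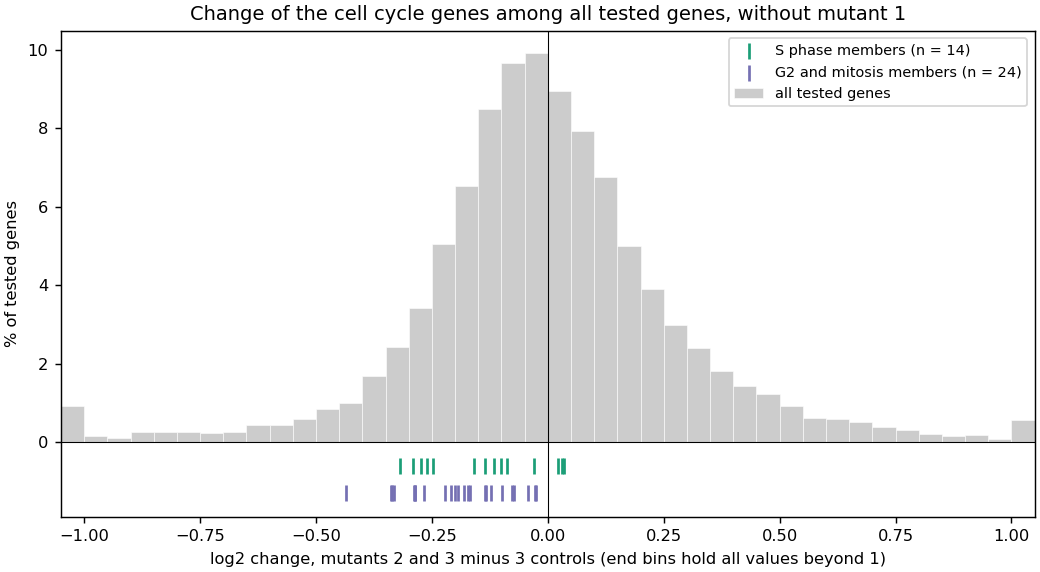
Grey bars give the share of the 15710 tested genes (y, percent) in each bin of log2 change, mutants 2 and 3 minus the 3 controls (x), and ticks under the axis mark single S-phase (green) and G2 and mitosis (purple) members. The members lie from -0.44 to 0.034, and 3 of 38 lie above 0.

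By limma's moderated test with Benjamini-Hochberg adjustment over all tested genes, 0 of 38 members were called with 6 libraries, where 0% of all tested genes were called lower. With array weights, by which mutant 1 counts little, limma called 0 members lower and 1.32% of all tested genes lower. Without mutant 1 it called 0 members lower and 0.0318% of all tested genes lower. At an unadjusted p under 0.05 there were 4 members with 6 libraries (10.5%, against 3.01% of all tested genes called lower at that level), 10 with array weights (26.3% against 10.5%) and 13 without mutant 1 (34.2% against 9.41%), all of them lower in mutants. Every mutant lay below every control in 15 of 38 members (39.5%), where 11.9% of all tested genes did so, and every mutant above every control in 1, Mcm2, where 8.98% did. Without mutant 1 these counts were 21 of 38 (55.3%) below, against 20.1%, and 1 above, against 16.2%.

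Among the S-phase genes the enzymes of deoxynucleotide supply were lower in each mutant. Rrm1 (ENSMUSG00000030978), the large subunit of ribonucleotide reductase, was 41.6, 42.1 and 38.4 FPKM in controls 1 to 3 and 24.1, 31.1 and 36.6 FPKM in mutants 1, 2 and 3. Rrm2 (ENSMUSG00000020649), its small subunit, was 37.8, 37.7 and 38.1 FPKM in controls 1 to 3 and 16.7, 26.9 and 35.2 FPKM in the mutants. All mutants lay below all controls in both, with mutant 1 lowest and mutant 3 nearest the controls. The log2 change of Rrm1 was -0.42 (SE 0.17, limma adjusted p = 0.695) with 6 libraries and -0.26 (SE 0.098, limma adjusted p = 0.258) without mutant 1. That of Rrm2 was -0.57 (SE 0.27) and -0.29 (SE 0.12, limma adjusted p = 0.291). Tyms (ENSMUSG00000025747), thymidylate synthase, was 58.5, 58.3 and 57.8 FPKM in controls 1 to 3 and 55.9, 54.4 and 52.8 FPKM in the mutants. The Tyms groups did not overlap although the mutants' mean was only 54.4 ± 1.54 FPKM against 58.2 ± 0.388 FPKM (SD, n = 3), and its controls varied by 0.667% (coefficient of variation).

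The cyclins that start replication were lower as well. Ccne1 (ENSMUSG00000002068), cyclin E1, was 34.4, 36.7 and 36.8 FPKM in controls 1 to 3 and 13.9, 30.4 and 29.9 FPKM in the mutants. Ccne2 (ENSMUSG00000028212), cyclin E2, was 23.2, 19.7 and 21.7 FPKM in controls 1 to 3, listed at 0 in mutant 1, and 15.8 and 18.4 FPKM in mutants 2 and 3. Neither overlapped between groups. The log2 change of Ccne1 was -0.60 (SE 0.31, limma adjusted p = 0.695) with 6 libraries and -0.25 (SE 0.075, limma adjusted p = 0.187) without mutant 1. That of Ccne2 was -1.71 (SE 1.17, limma adjusted p = 0.695) with the listed 0 and -0.32 (SE 0.11, limma adjusted p = 0.227) without mutant 1. E2f1, the transcription factor that activates S-phase genes, was 12.9, 13.0 and 15.2 FPKM in controls 1 to 3 and 6.58, 14.5 and 13.4 FPKM in the mutants. Mutants 2 and 3 lay within the E2f1 control range, and mutant 1 at 48.1% of the control mean.

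The subunits of the MCM helicase, which unwinds DNA at the fork, differed among themselves. Mcm5 (ENSMUSG00000005410) was 32.1, 32.1 and 32.7 FPKM in controls 1 to 3 and 31.0, 25.7 and 27.4 FPKM in the mutants, with no overlap (log2 change -0.20, SE 0.11, limma adjusted p = 0.695 with 6 libraries, and -0.27, SE 0.075, limma adjusted p = 0.16 without mutant 1). Mcm6 was 56.4, 62.0 and 58.2 FPKM in controls 1 to 3 and 81.5, 52.9 and 54.0 FPKM in the mutants. Mcm7 was 19.0, 23.1 and 19.0 FPKM in controls 1 to 3 and 21.1, 18.1 and 18.1 FPKM in the mutants. In both, mutants 2 and 3 lay below all controls and mutant 1 did not. Mcm2 was 34.6, 36.4 and 36.3 FPKM in controls 1 to 3 and 39.4, 36.7 and 36.5 FPKM in the mutants, the member with every mutant above every control, by a log2 change of 0.069 with 6 libraries, which was -0.027 when scaled by the upper quartile. Mcm4, whose small change also turned sign with scaling, overlapped between groups, at 29.3 to 31.2 FPKM in controls and 29.1 to 32.1 FPKM in mutants. Mcm3 was 50.5 to 51.7 FPKM in controls, 48.0 and 52.5 FPKM in mutants 2 and 3, and 123 FPKM in mutant 1. As proteins the 6 subunits form a ring in equal numbers. The control means of their RNA ran from 20.4 FPKM (Mcm7) to 58.9 FPKM (Mcm6), and protein was not measured.

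The remaining S-phase members overlapped between groups with 6 libraries, and Pcna did not without mutant 1. Pcna, the sliding clamp of DNA polymerase and the highest of the class, was 69.7, 68.9 and 73.2 FPKM in controls 1 to 3 and 88.6, 66.3 and 66.4 FPKM in the mutants. Cdc6, which loads the helicase and was the lowest of the class, was 6.69, 6.39 and 6.32 FPKM in controls 1 to 3 and 7.07, 5.17 and 6.85 FPKM in the mutants. Mutant 1 was the highest library for both genes, while mutant 2 was the lowest for both.

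**Figure D2:**
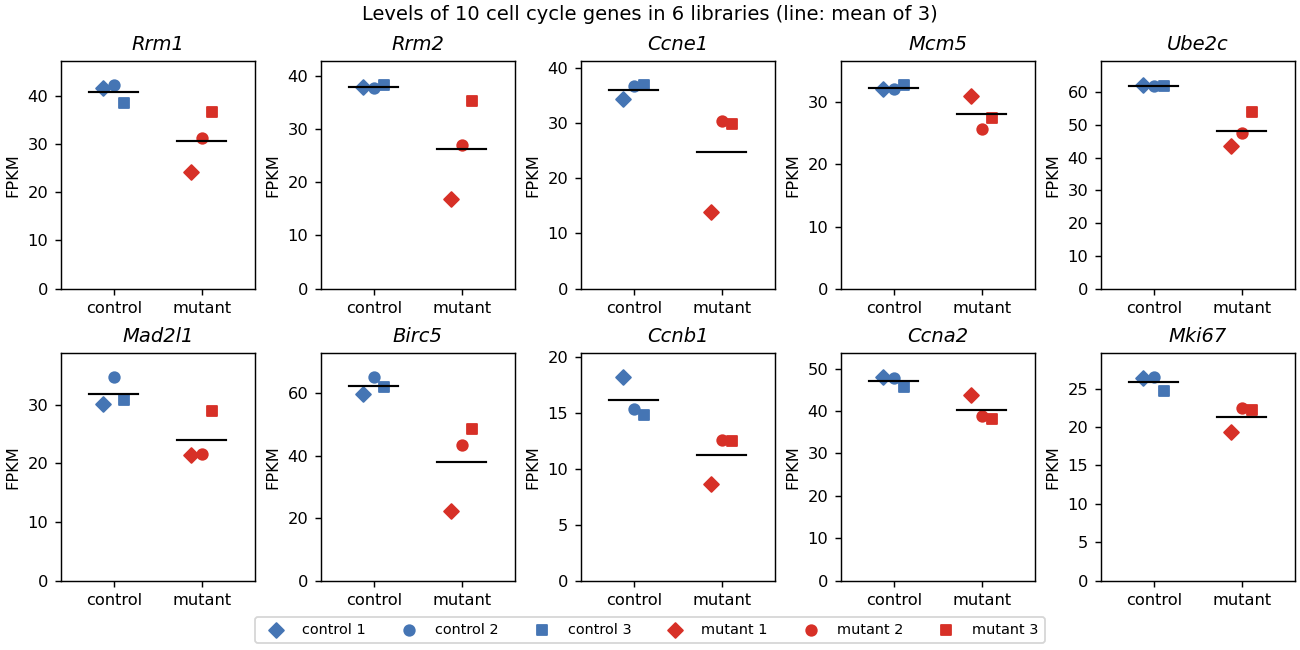
FPKM (y, from 0) of 10 cell cycle genes in single libraries, controls in blue and mutants in red, with a line at each group's mean and the marker shape giving the replicate number. All 10 are among the 15 of 38 members in which every mutant lay below every control, so the separation drawn follows from which genes are shown. Of these 10, Ube2c, Rrm2 and Mcm5 have the tightest controls.

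Among the genes of G2 and mitosis, those of the anaphase-promoting complex differed in how mutant 1 stood. Ube2c (ENSMUSG00000001403), the ubiquitin-conjugating enzyme of the anaphase-promoting complex, had the smallest unadjusted p of all members with 6 libraries. It was 62.1, 61.8 and 61.9 FPKM in controls 1 to 3 and 43.5, 47.4 and 53.9 FPKM in the mutants. The controls varied by 0.234%, and each mutant lay below them. The log2 change was -0.36 (SE 0.11, limma adjusted p = 0.695, unadjusted 0.019) with 6 libraries and -0.29 (SE 0.081, limma adjusted p = 0.167) without mutant 1. Cdc20, the activator of the same complex, was 49.5, 54.2 and 49.4 FPKM in controls 1 to 3 and 58.4, 44.5 and 40.1 FPKM in the mutants. Mutants 2 and 3 lay below all controls and mutant 1 above them.

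Birc5 and Mad2l1 act at the centromere. Birc5 (ENSMUSG00000017716), the survivin subunit of the chromosomal passenger complex, was 59.8, 65.1 and 62.1 FPKM in controls 1 to 3 and 22.3, 43.3 and 48.4 FPKM in the mutants. Its log2 change with 6 libraries was -0.77 (SE 0.30, limma adjusted p = 0.695). It had the lowest limma adjusted p of all members under other settings, 0.057 with array weights (log2 change -0.42) and 0.0969 without mutant 1 (log2 change -0.44, SE 0.084, 95% interval -0.64 to -0.23). Over the alternatives its limma adjusted p ran up to 0.872. Mutants 2 and 3 averaged 26.4% below the control mean, the largest such difference among the members. Mad2l1 (ENSMUSG00000029910), the spindle checkpoint protein, was 30.2, 34.7 and 30.8 FPKM in controls 1 to 3 and 21.4, 21.6 and 28.9 FPKM in the mutants. It did not overlap, though mutant 3 stood close to the lowest control.

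The checkpoint kinase genes overlapped between groups through mutant 3. Bub1 was 12.8, 10.8 and 9.85 FPKM in controls 1 to 3 and 7.76, 7.1 and 10.3 FPKM in the mutants. Bub1b was 22.1, 25.1 and 18.6 FPKM in controls 1 to 3 and 12, 15.9 and 22.0 FPKM in the mutants. Aurkb, the kinase of the passenger complex, was 29.5 to 31.8 FPKM in controls and 28.3 to 34.3 FPKM in mutants, overlapping where its partner Birc5 did not. Aurka, the centrosomal kinase, was 26.5, 29.6 and 26.2 FPKM in controls 1 to 3 and 15.0, 24.9 and 23.7 FPKM in the mutants, without overlap. Plk1, a kinase of mitotic entry, was 22.1 to 24.2 FPKM in controls, 25 FPKM in mutant 1, and 21.0 and 21.2 FPKM in mutants 2 and 3, the latter below all controls.

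Of the mitotic cyclins, Ccna2 (ENSMUSG00000027715), cyclin A2, was 48.0, 47.8 and 45.8 FPKM in controls 1 to 3 and 43.9, 38.8 and 38.2 FPKM in the mutants. Ccnb1 (ENSMUSG00000041431), cyclin B1, was 18.2, 15.4 and 14.8 FPKM in controls 1 to 3 and 8.59, 12.6 and 12.5 FPKM in the mutants. Neither overlapped. The log2 changes with 6 libraries were -0.23 (SE 0.10) for Ccna2 and -0.50 (SE 0.19) for Ccnb1, both at a limma adjusted p of 0.695. Without mutant 1 they were -0.29 (SE 0.071, limma adjusted p = 0.138) and -0.33 (SE 0.11, limma adjusted p = 0.217). Ccnb2, cyclin B2, was 34.5, 33.5 and 32.4 FPKM in controls 1 to 3 and 56.0, 29.2 and 30.0 FPKM in the mutants. Cdk1, the kinase they activate and the most abundant member, was 160, 142 and 154 FPKM in controls 1 to 3 and 71.3, 144 and 145 FPKM in the mutants. Mutants 2 and 3 lay within the Cdk1 control range, and its log2 change was -0.41 (SE 0.29) with 6 libraries and -0.073 without mutant 1 (95% interval -0.26 to 0.12).

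The general markers of proliferation were lower by small amounts in mutants 2 and 3, and by more in mutant 1 (75.1% of the control mean for Mki67 and 46.4% for Top2a). Mki67 (ENSMUSG00000031004), the Ki-67 protein that coats mitotic chromosomes, was 26.3, 26.5 and 24.7 FPKM in controls 1 to 3 and 19.4, 22.5 and 22.2 FPKM in the mutants. Top2a, the topoisomerase that untangles chromosomes, was 92.7, 102 and 84.4 FPKM in controls 1 to 3 and 43.1, 80.2 and 83.3 FPKM in the mutants. Every mutant lay below every control in both, by 13.5% and 12.1% on average in mutants 2 and 3 (limma adjusted p = 0.271 and 0.4 without mutant 1). The log2 change of Top2a was -0.48 (SE 0.27) with 6 libraries and -0.18 (SE 0.095) without mutant 1.

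The spindle motors and microtubule proteins divided. Kif20a, a motor of cytokinesis, was 23.8, 24.4 and 22.0 FPKM in controls 1 to 3 and 11.9, 17.6 and 20.5 FPKM in the mutants, without overlap. Kif11, which pushes spindle poles apart, was 16.3 to 18 FPKM in controls and 12.6, 13.2 and 16.5 FPKM in the mutants. Kif23 was 14.3 to 14.5 FPKM in controls, 20.7 FPKM in mutant 1, and 13.4 and 14.9 FPKM in mutants 2 and 3, on either side of the controls. Prc1, which bundles the central spindle, was 35.9 to 42.5 FPKM in controls and 33.1 to 52.9 FPKM in mutants. Nusap1, another spindle protein, was 20.3 to 23.8 FPKM in controls and 20.8 to 23.3 FPKM in mutants. Tpx2, an activator of Aurka, was 34.8 to 37.8 FPKM in controls, 90.0 FPKM in mutant 1, and 30.2 and 37.1 FPKM in mutants 2 and 3. Of these 6 genes only Kif20a kept its groups apart.

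The centromere genes overlapped between groups. Cenpa, the centromeric histone, was 37.4 to 42.0 FPKM in controls and 36.2 to 52.6 FPKM in mutants. Cenpe, a kinetochore motor and the lowest member of the class, was 6.93 to 8.11 FPKM in controls and 6.47 to 9.85 FPKM in mutants. Cenpf, a large kinetochore protein, was 20.4, 15.0 and 17.6 FPKM in controls 1 to 3, 114 FPKM in mutant 1, and 12.7 and 17.3 FPKM in mutants 2 and 3. Its log2 change was 0.73 with 6 libraries and -0.22 without mutant 1.

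**Figure D3:**
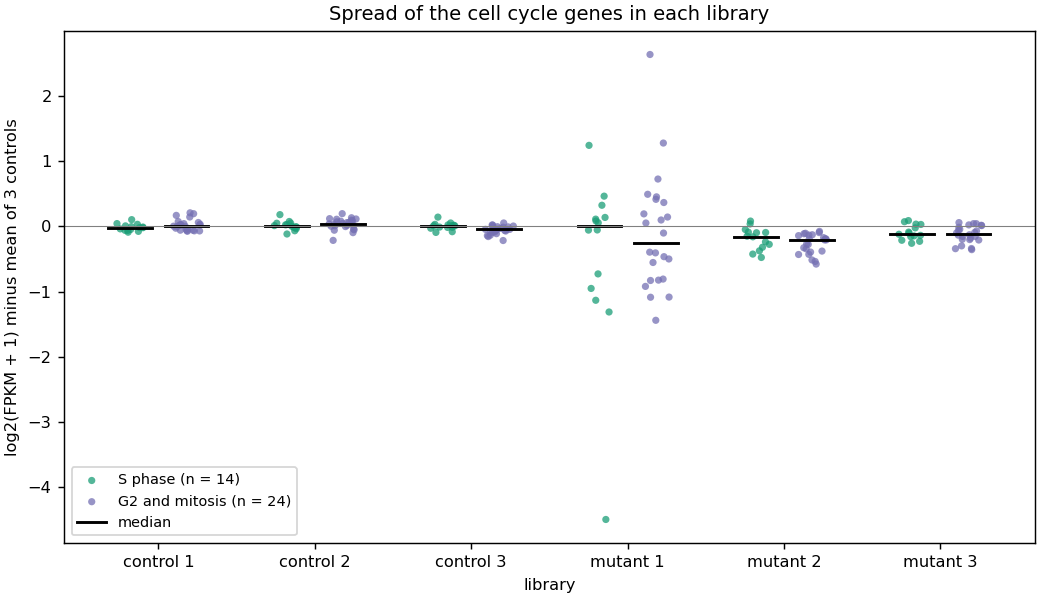
Each point is a member's log2(FPKM + 1) minus its mean over the 3 controls (y) in a library (x), green for S phase and purple for G2 and mitosis, with a black line at the median. Mutant 1 spreads from the value of Ccne2, listed at 0 there, to 2.63 for Cenpf, while medians in mutants 2 and 3 run from -0.21 to -0.11.

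Mutant 1 lay outside the range of the other libraries in 31 of 38 members (81.6%), above it in 15 and below it in 16. Over all tested genes this share was 85.2%. The members' share was thus near that of all tested genes. Mutant 1 lay below all 3 controls in 20 of 38 members, against 7594 of the 15710 tested genes. It lay above all 3 controls in 16 of 38, against 6674 of the 15710. Mutant 2 lay below all 3 controls in 34 of 38 members (89.5%, against 33.7% of all tested genes), and mutant 3 did so in 21 (55.3%, against 31.5%). Mutants 2 and 3 lay above all 3 controls in 1 and 6 of the 38 members, against 4650 and 4181 of the 15710 tested genes. Mutant 2 was the lower of mutants 2 and 3 in 29 of 38 members (76.3%, against 47.9% of all tested genes). The controls varied little in these genes, with a median coefficient of variation of 4.85%, against 7.72% in the 9572 tested genes whose control mean fell within the members' range of 6.47 to 152 FPKM. The part of this narrower control spread in the counts above was not tested. All members were read in the same embryos, so the counts are not of independent observations.

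**Figure D4:**
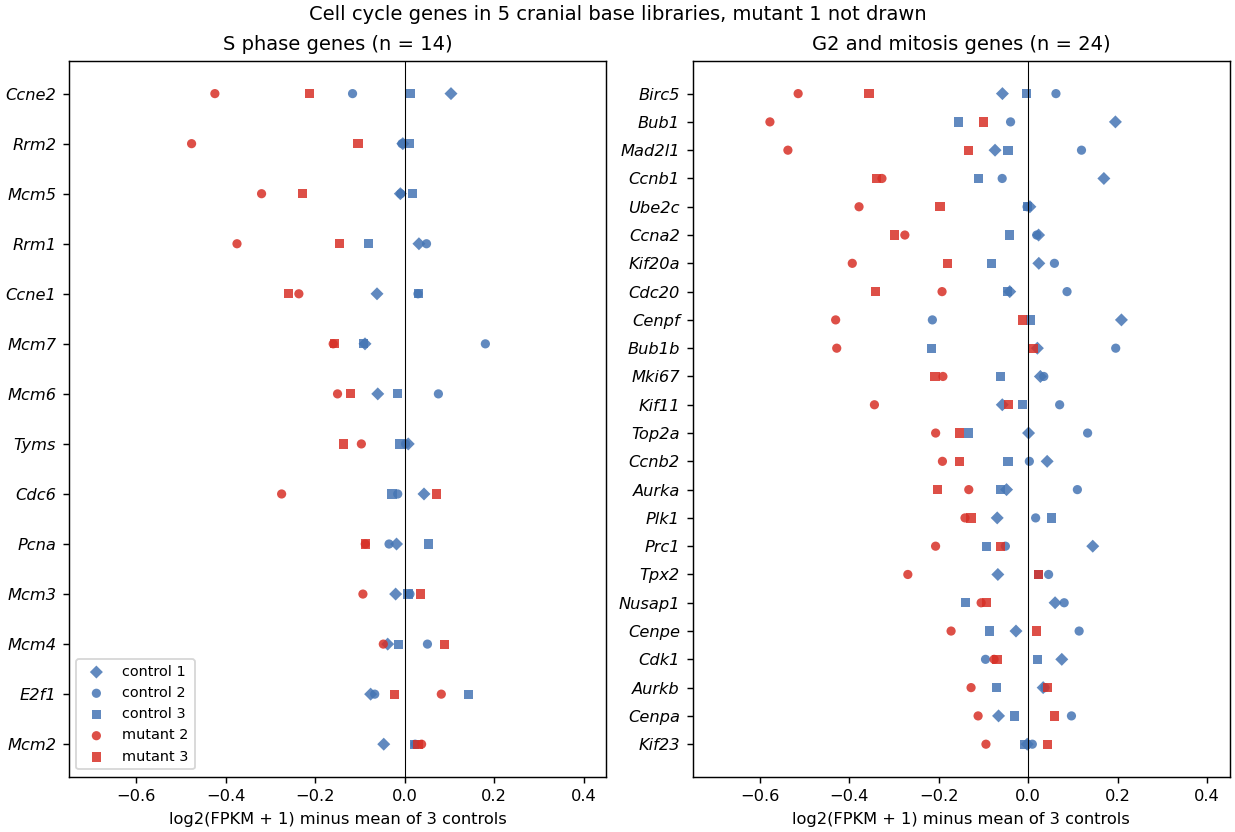
Log2(FPKM + 1) minus the mean of the 3 controls (x) for each member (rows), in the controls (blue) and mutants 2 and 3 (red), ordered by the mean of these mutants. Birc5, at -0.44, has the lowest mean, followed by Bub1, Mad2l1, Ccnb1 and Ccne2, and Mcm4, E2f1 and Mcm2 lie above 0.

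Setting S-phase genes against G2 and mitosis genes gave an answer that depended on mutant 1 and on the summary used. The median S-phase change from the control mean was 0.00045 in mutant 1, -0.15 in mutant 2 and -0.11 in mutant 3, and that of G2 and mitosis was -0.25, -0.21 and -0.11. S phase minus G2 and mitosis was thus -0.031, -0.034 and 0.054 in the controls and 0.25, 0.052 and 0.0014 in mutants 1, 2 and 3, so mutant 1 lay above the controls and mutants 2 and 3 within their range. The pooled SD of these differences between libraries of a group was 0.099 with 6 libraries and 0.046 without mutant 1. From the fitted changes, the median of S phase minus that of G2 and mitosis was 0.15 with 6 libraries and 0.061 without mutant 1. The SD describes single libraries and is not the error of this fitted difference. The difference was not tested. By means of log2(FPKM + 1) the sign in mutant 1 turned, with S phase minus G2 and mitosis at 0.034, 0.050 and 0.13 in the controls and -0.27, 0.15 and 0.10 in the mutants. Leaving out Ccne2, listed at 0 in mutant 1, a choice made after its value was seen, these means gave 0.066, 0.10 and 0.17 in the controls and 0.080, 0.21 and 0.15 in the mutants, which overlapped.

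Embryos share the opening word of their titles, whose meaning is not given. Controls 2 and 3 share it with mutant 3, and within that word mutant 3 minus the controls had a median log2 difference of -0.12 over the S-phase members and -0.10 over the G2 and mitosis members, against -0.0065 over all tested genes. It was below 0 in 10 of 14 and 17 of 24 members, against 51.1% of all tested genes. Control 1 shares its word with mutant 1, and mutant 1 minus control 1 had medians of 0.012 and -0.24, against -0.082 over all tested genes. That difference was below 0 in 7 of 14 and 14 of 24 members, against 8369 of the 15710 tested genes. Mutant 2 shares its word with no other embryo, so for mutant 2 the word and the genotype cannot be told apart.

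Other genes of the same pathways, listed with earlier results known, were mostly below 0 without mutant 1 as well. Of 39 other replication genes 35 were below 0 without mutant 1 (median -0.12) and 26 with 6 libraries (median -0.13), and 0 were called by limma in either, or with array weights. At an unadjusted p under 0.05 without mutant 1 there were 7 lower (17.9%, against 9.41% of all tested genes) and 1 higher. The 3 with the smallest p over 6 libraries were Rfc2 and Rfc4, subunits of the clamp loader, and Orc5, a subunit of the origin recognition complex. Rfc2 was 38.8, 37.5 and 37.7 FPKM in controls 1 to 3 and 19.0, 28 and 31.0 FPKM in the mutants, and Rfc4 was 15.2, 19.5 and 17.4 FPKM and 12.6, 13.0 and 14.2 FPKM. Orc5 ran the other way, at 49.1, 40.7 and 46.6 FPKM in controls 1 to 3 and 69.0, 55.5 and 54.0 FPKM in the mutants. None of the 3 overlapped between groups, a separation that picking the smallest p favours. Over the whole list every mutant lay below every control in 8 of 39 with 6 libraries (20.5%, against 11.9% of all tested genes). Every mutant lay above every control in 1 (2.56%, against 8.98%).

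Of 50 other mitosis genes 45 were below 0 without mutant 1 (median -0.19, 11 at an unadjusted p under 0.05, all lower, 22% against 9.41% of all tested genes) and 32 with 6 libraries (median -0.092, where the G2 and mitosis members had -0.24), and 0 were called by limma in either, or with array weights. Cdca3, a trigger of mitotic entry, was 70.7, 70.9 and 64.0 FPKM in controls 1 to 3 and 20.3, 49.0 and 52.2 FPKM in the mutants (limma adjusted p = 0.0966 without mutant 1). The kinetochore subunits Nuf2 and Spc24 were lower in each mutant too, and all 3 genes were picked for the smallest p of the list. Over the whole list every mutant lay below every control in 11 of 50 with 6 libraries (22%, against 11.9% of all tested genes). Every mutant lay above every control in 0 (against 8.98%). Nuf2 was 14.6 to 17.0 FPKM in controls and 8.93 to 13.7 FPKM in mutants, and Spc24 was 15.1 to 15.8 FPKM and 7.26 to 12.6 FPKM.

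Of 29 regulators of G1, 20 were below 0 without mutant 1 (median -0.077) and 15 with 6 libraries (median -0.055), and 0 were called by limma in either, or with array weights (1 at an unadjusted p under 0.05 without mutant 1, 3.45% against 9.41% of all tested genes). Every mutant lay below every control in 24.1% of them with 6 libraries, against 11.9% of all tested genes, and in 44.8% without mutant 1, against 20.1%. Cdk4, the kinase of the D cyclins, was 611, 614 and 603 FPKM in controls 1 to 3 and 420, 536 and 556 FPKM in the mutants. Ccnd3, cyclin D3, was 238, 224 and 271 FPKM in controls 1 to 3 and 148, 203 and 214 FPKM in the mutants. E2f2 was 6.23, 9.5 and 10.9 FPKM in controls 1 to 3 and 1.84, 6.07 and 5.13 FPKM in the mutants. In mutant 1 the lowest 5% of values above 0 reached up to 1.87 FPKM, so its E2f2 value stood at the floor of that library. Mutant 2 stood close to the lowest E2f2 control. Cdk4, Ccnd3 and E2f2, picked for the smallest p of the list, all kept their groups apart, a separation this choice favours.

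Of 7 CDK inhibitors, which hold cells out of the cycle, 5 passed the filter, and 2 of these 5 were below 0 without mutant 1 (median 0.044) and 4 with 6 libraries (median -0.11). All 5 overlapped between groups. Cdkn1a, known as p21, was 102, 99 and 119 FPKM in controls 1 to 3 and 53.6, 112 and 95.3 FPKM in the mutants. Cdkn2d was 20.0, 23.7 and 21.8 FPKM in controls 1 to 3 and 7.79, 25.6 and 23.4 FPKM in the mutants. Cdkn1b, known as p27, was 14.5, 16.7 and 15.4 FPKM in controls 1 to 3 and 11.4, 14.7 and 17.5 FPKM in the mutants. In all 3 mutant 1 was the lowest library.

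**Figure D5:**
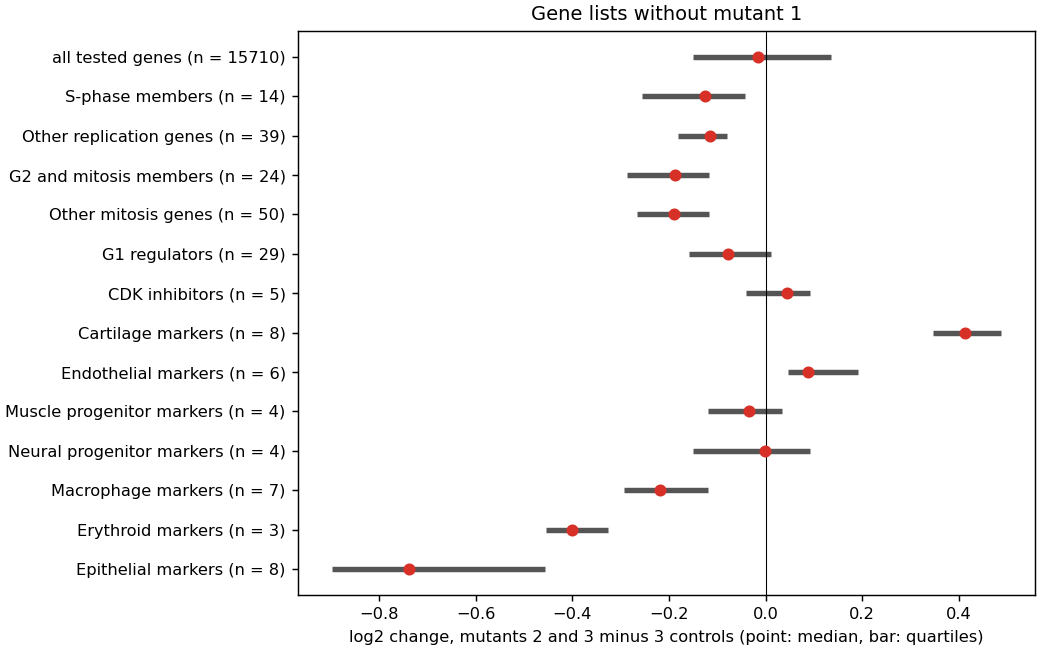
Median (red point) and quartiles (grey bar) of the log2 change, mutants 2 and 3 minus 3 controls (x), for the members, other pathway lists and cell type markers (rows). The S-phase and mitosis lists lie between -0.19 and -0.12, the cartilage markers at 0.41 and the epithelial markers at -0.74.

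Markers of some cell types also stood at different levels in the groups. Limma called 0 of 8 epithelial markers lower with 6 libraries, 2 without mutant 1 and 6 with array weights. All tested genes gave 0%, 0.0318% and 1.32% lower. Of 8 cartilage markers it called 0 higher with 6 libraries, 0 without mutant 1 and 2 with array weights. Among the 15710 tested genes 0, 2 and 113 were called higher. Summed over 8 cartilage markers the level was 2890 to 3750 FPKM in controls and 4176 to 4794 FPKM in mutants, and 8 of 8 had a log2 change above 0. Summed over 8 epithelial markers it was 688 to 699 FPKM in controls and 377 to 419 FPKM in mutants, with 6 of 8 below 0 without mutant 1. The 9 matched erythroid markers summed to 676 to 828 FPKM in controls and 481 to 645 FPKM in mutants, of which Hba-a1 alone gave 649, 803 and 723 FPKM in controls and 455, 626 and 587 FPKM in mutants 1 to 3. Of these 9, 3 passed the filter, all 3 below 0, and 7 were listed at 0 in mutant 1. Macrophage markers summed to 171 to 182 FPKM and 175 to 211 FPKM, with 6 of 7 below 0 without mutant 1. The sums of neural progenitor (71.2 to 81.8 and 77.6 to 101 FPKM), muscle progenitor (111 to 146 and 124 to 137 FPKM) and endothelial markers (144 to 161 and 151 to 169 FPKM) overlapped between groups. The part of any of these cell types in the cell cycle values was not tested.

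In the authors' deposited table, made by a test the labels do not name, 4 members had a p-value under 0.05, which were Ube2c (0.0151), Tyms (0.0154), Mki67 (0.0215) and Ccna2 (0.0265). The share of all entries with such a p-value was not computed, so this count stands without a background and is not read as a result. The authors' deposited table gave 0 members a q-value under 0.05, where 3 of all its genes had one. The smallest among the members was 0.305 for Ube2c, and 22 of 38 had 99 in its place.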

How the data were processed

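RNA from the cranial base of 6 embryos was sequenced by standard Illumina protocols, per the labels' protocols. The authors deposited FPKM per gene, made with Cufflinks against mm9, per the submitters' processing notes; no header names a unit, which was inferred from this tool and the range of values. Aligner, annotation release and filters: not given in the sources used here. A deposited signed fold is a score and was not used, the deposited p-value was copied, and the deposited q-value is treated as a score because 99 stands in for it in many entries. Entries with the missing code (15) were left out, and a repeated symbol took its entry with the highest mean. The test used genes averaging 1 FPKM or more on the log2(FPKM + 1) scale, in limma 3.58.1 under R 4.3.3 (lmFit on genotype, then robust eBayes with a mean trend, two-sided, Benjamini-Hochberg over 15710 genes, threshold 0.05). Array weights and a random effect of the title word (statmod 1.5.0) were alternatives, as were other pseudocounts, filters and scalings and leaving out each library. The fit was tested on data drawn with known changes. The members, lists and tests were chosen with earlier results of these data known. Described in full were, per class, the 4 members with the smallest p, the 3 highest and the lowest, and those whose groups did not overlap, beside the 3 smallest p per pathway list. Others are given by their values too. Replicate numbers follow accession order and pair no samples. Promoter windows came from RefSeq, GRCm38.p6, a build other than that of the files, and were matched by symbol. The total count per library is unknown because FPKM keep no counts.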

Additional observations from a re-analysis of the deposited data

How the results depend on the processing

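Of the 38 members 22 kept the sign of their log2 change in all alternatives run and 16 turned it in at least 1; the cause was not tested. Genes called over all tested genes were 0 with 6 libraries, 320 with array weights, 0 to 7 when a library was left out (7 without mutant 1), and, in alternatives chosen after seeing the data, 8 without mutant 1 scaled by the median of ratios and 7 without mutant 1 with array weights. Members called were 0 in each. The S-phase median was -0.19 scaled by the upper quartile and -0.13 to -0.067 with a library left out. The G2 and mitosis median was -0.16 with array weights, -0.34 scaled by the upper quartile, -0.17 without mutant 1 scaled by the median of ratios and -0.26 to -0.19 with a library left out. The S-phase median minus the G2 and mitosis median was 0.036 with array weights and 0.061 to 0.16 with a library left out, against 0.15. With the title word as a replicate block the medians were -0.091 and -0.24, 0 genes were called, and no direction turned. With array weights, the log2 changes that turned sign were Mcm3 -0.00021, Mcm6 -0.13, Pcna -0.081, E2f1 0.015, Ccnb2 -0.16, Aurkb -0.020, Kif23 -0.0020, Cenpa -0.0033, Cenpe -0.054, Cenpf -0.13, Tpx2 -0.070 and Prc1 -0.11. Scaled by the median of ratios, the log2 changes that turned sign were Mcm4 -0.0081, Pcna -0.0011 and Aurkb -0.030. Scaled by the upper quartile, the log2 changes that turned sign were Mcm2 -0.027, Mcm4 -0.053, Mcm6 -0.032, Pcna -0.047, Aurkb -0.075, Cenpe -0.018 and Prc1 -0.035. Without mutant 1 and scaled by the median of ratios, the log2 changes that turned sign were Mcm3 -0.010, Mcm6 -0.12, Pcna -0.068, E2f1 0.048, Ccnb2 -0.15, Aurkb -0.024, Kif23 -0.0079, Cenpa -0.0078, Cenpe -0.060, Cenpf -0.20, Tpx2 -0.10 and Prc1 -0.12. Without mutant 1 and with array weights, the log2 changes that turned sign were Mcm3 -0.029, Mcm6 -0.14, Pcna -0.084, E2f1 0.037, Ccnb2 -0.17, Aurkb -0.046, Kif23 -0.027, Cenpa -0.032, Cenpe -0.085, Cenpf -0.21, Tpx2 -0.12 and Prc1 -0.13. With each library left out in turn, the log2 changes that turned ranged as follows: Mcm3 -0.029 to 0.64, Mcm6 -0.13 to 0.17, Mcm7 -0.16 to 0.0031, Pcna -0.087 to 0.12, Cdc6 -0.10 to 0.092, E2f1 -0.49 to 0.030, Ccnb2 -0.17 to 0.29, Aurkb -0.043 to 0.093, Kif23 -0.026 to 0.27, Cenpa -0.027 to 0.24, Cenpe -0.077 to 0.19, Cenpf -0.22 to 1.31, Tpx2 -0.12 to 0.65 and Prc1 -0.13 to 0.20. Every library left out leaves 1 arm with 2 libraries. Depth is unknown for mutant 1, and FPKM give no counting error.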
